A study of Mus musculus with 8 samples.

Results

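The genes described here are Ankrd1, Ankrd2, Csrp3, Fhl1, Fhl2, Xirp1, Xirp2 and Nrap, which encode proteins with ankyrin repeats, LIM domains or Xin repeats found at the cardiomyocyte's sarcomere and cell junctions and grouped here as stretch-responsive. They were taken by symbol from the deposited count table, where all 8 have an entry among 48440. The samples were cardiomyocytes purified from untreated C57BL6/J mouse pups on postnatal day 2. There were 4 male and 4 female libraries, 1 heart of each sex from each of 4 litters, and the labels name no transgene, deletion or treatment for either sex. Each library rests on a single heart, and cell purity is known here only through marker genes.

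Mechanical load on a heart muscle cell is carried by titin, the Z-disc and the intercalated disc, and proteins parked at these places move or change in amount when the load changes. Ankrd1 and Ankrd2 are muscle ankyrin repeat proteins that bind the elastic part of titin and can enter the nucleus, and Ankrd1 is a classic gene of the stretched or overloaded heart. Csrp3, the muscle LIM protein, lies at the Z-disc and is mutated in cardiomyopathy. Fhl1 and Fhl2 are LIM-only adaptors that bind titin and signalling kinases. Xirp1 and Xirp2 carry Xin repeats, which bind actin at the intercalated disc, and Nrap, a LIM and nebulin-repeat protein, takes part in building new myofibrils and joining them to the disc.

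Library totals ran from 14226342 to 24910243 counts, and values are given as CPM, a gene's counts as a share of its library's total, scaled alike in all libraries. Cardiomyocyte markers were high in every library. The summed level of 8 such genes, among them Tnnt2, Myh6 and Ryr2, ran from 64733 to 85696 CPM. Both libraries of litter 3 lay lowest, at 65555 CPM in the male and 64733 CPM in the female, against 73503 to 85696 CPM in the other 6. They also lay apart on 10 immediate-early and heat shock genes, with a summed 1353 and 1261 CPM against 317 to 573 CPM. The cardiomyocyte list holds Myh6 but not Myh7, which had 5726 and 3974 CPM in litter 3 against 379 to 1768 CPM elsewhere. Summed fibroblast markers were also lower in litter 3, at 53.0 and 33.1 CPM against 105 to 246 CPM. The part of the myosin genes in the low cardiomyocyte sum was not tested. In bulk RNA, fewer cells of a type and less RNA per cell cannot be told apart. The mitochondrial share of counts was 13.4 to 15.2% in 7 libraries and 18.5% in the remaining one, the litter 4 male. Nothing in the labels says that litters were prepared on different days, and a litter and its preparation cannot be told apart.

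On GRCm38 (GENCODE M21), 3 of the genes lie on chromosome 19: Ankrd1 at chr19:36111961-36120099, Ankrd2 at chr19:42036000-42045110 and Nrap at chr19:56320035-56390037. Csrp3 lies at chr7:48830398-48848033, Fhl1 at chrX:56731787-56793346 and Fhl2 at chr1:43123074-43196984. The Xin-repeat genes are on different chromosomes, Xirp1 at chr9:120013755-120023598 and Xirp2 at chr2:67446002-67526614. All 8 are protein-coding genes, counted here as whole genes.

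All but 1 of the 8 genes were clearly expressed, at very unequal levels. Together they took 0.300% to 0.370% of all counts. Compared per kilobase of annotated exon, Fhl2 was the highest, with 648 ± 59.7 CPM per kb (SD, n = 8), which placed it 46 among the tested genes. Csrp3 followed with 294 ± 12.6 CPM per kb (SD, n = 8) and Ankrd1 with 129 ± 55.9 CPM per kb (SD, n = 8). Nrap had 86.1 ± 10.2, Xirp1 had 53.4 ± 5.67 and Fhl1 had 30.9 ± 2.45 CPM per kb (SD, n = 8). Xirp2 had 2.79 ± 1.05 CPM per kb (SD, n = 8), so that Xirp1 stood far above Xirp2 in level per length. Neighbours in this order did not overlap over the 8 libraries except Ankrd1 and Nrap, where Ankrd1 was the higher in 6 of 8. The order of the middle genes depends on the length used. With coding length, which leaves out the untranslated parts, Fhl1, Xirp1 and Nrap had 118, 91.9 and 91.5 CPM per kb, while Fhl2, Csrp3 and Ankrd1 stayed in front in that order.

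**Figure D1:**
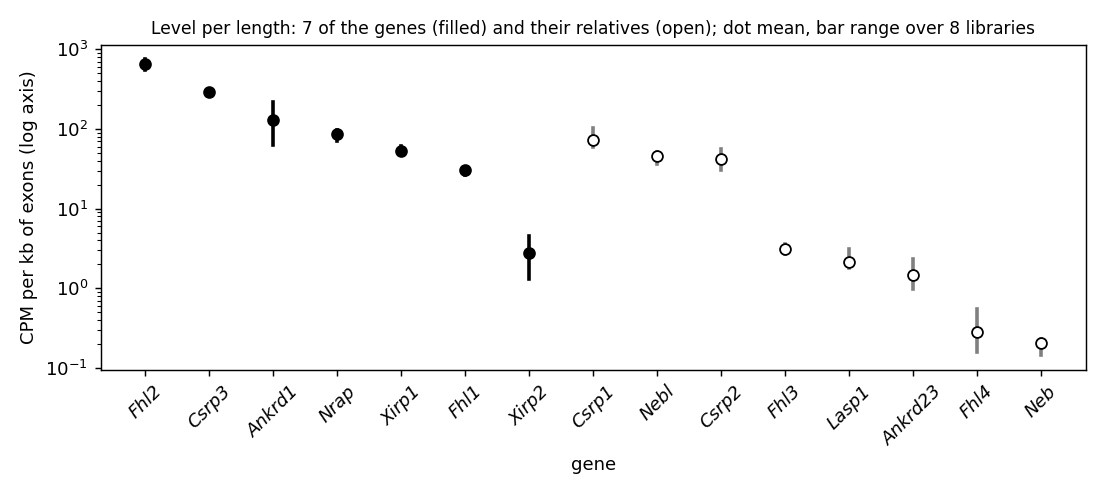
Level per kilobase of annotated exon on a log axis for 7 of the genes (filled) and 8 relatives (open), with the mean as a dot and the lowest and highest of 8 libraries as a bar. Fhl2, at 648 CPM per kb, and Csrp3, at 294 CPM per kb, stand above the others, and Xirp2 lies at 2.79 CPM per kb; Ankrd2 is left out because it was not detected above the floor.

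Ankrd2, the ankyrin repeat protein typical of slow skeletal muscle, was at the floor of detection at this depth, with at most 3 counts in any library. It had 1 count in each library of litter 1, 1 count in the male and 3 counts in the female of litter 2, and 2 counts in the male of litter 4. In both libraries of litter 3 and in the female of litter 4 it had 0 counts, which allows up to 0.211, 0.133 and 0.122 CPM in the female and male of litter 3 and the female of litter 4 by counting error alone. It did not pass the filter on low counts, so 7 of the 8 genes were tested. Of 10 skeletal muscle markers, Myod1, Myf5, Pax7, Myh1 and Myh4 had 0 counts in every library, and the summed level of the list was 4.17 to 7.21 CPM. Ankrd23, the remaining member of this ankyrin family, was detected at a low level of 2.62 to 6.23 CPM.

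Ankrd1, the stretch-induced ankyrin repeat gene, was the member that differed most from heart to heart. In males it had 509, 636, 367 and 320 CPM in litters 1 to 4, and in females 489, 188, 290 and 180 CPM. The male was the higher in all 4 litters, narrowly in litter 1 and by the widest margin in litter 2, yet the sexes overlapped, because the female of litter 1 lay above the males of litters 3 and 4. The ratio of male to female was 1.04, 3.39, 1.27 and 1.81 in litters 1 to 4. The standard deviation of its log2 CPM over the 8 libraries was 0.65, larger than for 94.0% of tested genes, whose median was 0.19.

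Male and female cardiomyocytes were compared to ask which of these genes depend on the sex of the pup. None of the 7 tested genes passed the edgeR test without a litter block, in which 6 of 13771 genes (0.0436%) were called, and 306 genes, no member among them, had an unadjusted p under 0.05. DESeq2 called 0 members as well. Ankrd1 averaged 458 ± 143 CPM over males and 287 ± 144 CPM over females (SD, n = 4), with a male minus female log2 difference of 0.68 (SE 0.31, edgeR adjusted p = 1.00). It was 0.32 without litter 2 and 1.07 without the female of litter 1. Xirp2 had 0.28 (SE 0.32, edgeR adjusted p = 1.00), from 0.036 without the male to 0.52 without the female of litter 1. A blocked fit, in which each male is set against its own litter mate, called 29 genes (0.211%), and again no member was among them. In that fit 2 of the 7 members had an unadjusted p under 0.05, beside 1592 of all genes (11.6%), and neither held after adjustment. Ankrd1 had 0.75 (SE 0.20, edgeR unadjusted p = 0.00254, adjusted p = 0.232), and 0.41 without litter 2. Xirp2 then had 0.29 (SE 0.06, edgeR unadjusted p = 0.000391, adjusted p = 0.104), with the male higher in 4 of 4 litters, at ratios of 1.21, 1.22, 1.31 and 1.17. A gene with the male higher in every litter is common in these data, with 1506 of 13771 genes (10.9%), and among the members Ankrd1, Fhl1 and Xirp2 were such genes. The blocked fit also called 5 of 8 fibroblast markers higher in males. Their sum was 166, 246, 53.0 and 216 CPM in the males of litters 1 to 4, and 111, 155, 33.1 and 105 CPM in the females. The part of fibroblasts in the sex differences of the members was not tested.

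**Figure D2:**
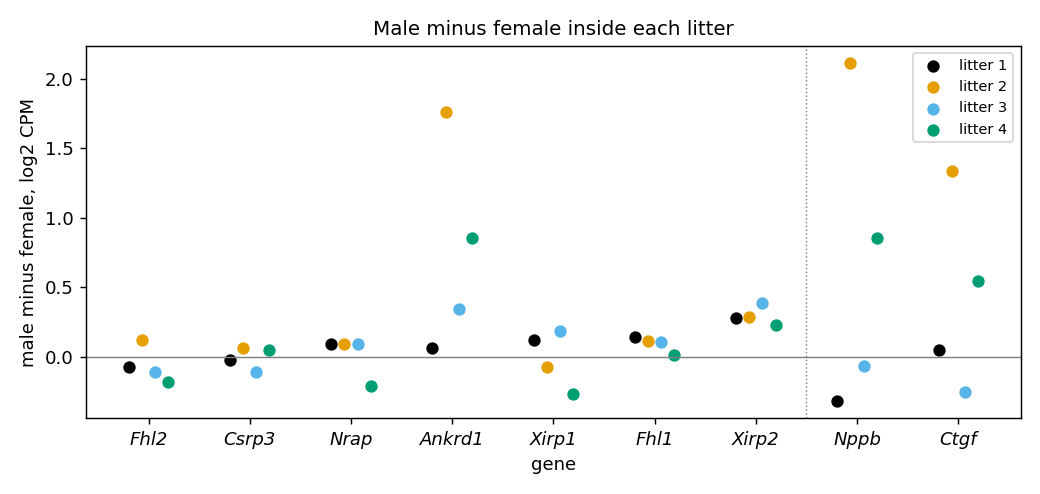
Male minus female log2 CPM inside each of the 4 litters (colours) for 7 of the genes and, right of the dotted line, for Nppb and Ctgf, the genes closest to Ankrd1 in profile. Ankrd1 lies above 0 in every litter, with its widest gap of 1.76 in litter 2, where Nppb and Ctgf also have their widest gaps; the 4 values of Xirp2 lie close together between 0.23 and 0.39.

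The remaining genes showed smaller gaps. Male minus female log2 differences were -0.0036 for Csrp3 (SE 0.086), -0.067 for Fhl2 (SE 0.11), -0.016 for Xirp1 (SE 0.10) and 0.015 for Nrap (SE 0.12), none past the edgeR threshold. Fhl1 is X-linked, and males averaged 118 ± 7.87 CPM against 112 ± 10.2 CPM over females (SD, n = 4). Its log2 difference was 0.088 (SE 0.099, edgeR adjusted p = 1.00), and leaving out the litter 3 female gave 0.019, leaving out the litter 4 female 0.16. In the blocked fit the Fhl1 difference was 0.091 (SE 0.050, edgeR adjusted p = 0.509), and it ran from 0.073 to 0.12 in blocked fits without a litter.

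Markers of another heart chamber moved beside Ankrd1 in litter 2. The summed level of 7 atrial genes, all 7 of them with counts, was 887 CPM in the male and 272 CPM in the female of that litter. Over all litters the list ran from 436 to 1398 CPM in males and from 272 to 1696 CPM in females. In litter 2 Myl7 and Myl4, the atrial myosin light chains, were 21.5-fold and 8.29-fold higher in the male than in the female, and Nppa was 2.67-fold higher. In litter 3, where Ankrd1 was 1.27-fold higher in the male, Myl7 was 1.96-fold and Myl4 1.22-fold higher in the male, while the summed list was lower there, at 1398 CPM against 1696 CPM in the female. Most of that sum is Nppa, with 1202 of the 1398 CPM. In litter 1, where Ankrd1 was 1.04-fold higher in the male, Myl7 was 1.69-fold and Myl4 1.63-fold higher. In litter 4, where Ankrd1 was 1.81-fold higher, Myl7 was 1.40-fold and Myl4 1.33-fold higher, and the summed list was level at 438 and 440 CPM. Other genes of the list went less evenly. Nppa had male to female ratios of 1.20, 2.67, 0.778 and 0.918 in litters 1 to 4. Tbx5 had 43.0, 56.1, 58.9 and 40.4 CPM in the males of litters 1 to 4, and 37.9, 53.8, 52.5 and 45.8 CPM in the females. Sln, an atrial gene with few counts, had 382 counts in the litter 2 male against 10 in its litter mate, 99 against 2 in litter 3, 55 against 50 in litter 1, and 76 against 71 in litter 4. The part of atrial cells in the level of Ankrd1 was not tested.

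Of the 3 genes whose profile over the 8 libraries lay nearest to that of Ankrd1, 2 are known stretch responders. Likeness was measured as the root mean square difference of log2 CPM after each gene was centred on its own mean, over 8564 genes with at least 10 CPM. The nearest was Nppb, which encodes B-type natriuretic peptide, at 0.20, followed by Ctgf, a secreted matricellular protein gene and a known target of YAP and TEAD, at 0.23, and Fam198b at 0.31. The median over all genes compared was 0.63. Nppb had 69.4, 105, 49.8 and 41.0 CPM in the males of litters 1 to 4, and 87.0, 24.2, 52.0 and 23.2 CPM in the females. Ctgf had 86.5, 116, 53.3 and 56.9 CPM in the males and 84.0, 46.2, 63.5 and 39.9 CPM in the females. Ankrd1, Nppb and Ctgf were all highest in the male of litter 2 and lowest in the females of litters 2 and 4. Nppa, the related atrial peptide gene, went another way, with 1202 and 1544 CPM in litter 3 and 181 to 480 CPM elsewhere. Other genes of the stretch list ran differently. Cyr61, like Ctgf a YAP target, had male to female ratios of 0.864, 0.696, 1.62 and 0.662 in litters 1 to 4, and Acta1, the skeletal actin of the loaded heart, had 0.897, 0.645, 0.694 and 1.51. Both were lower in the male of litter 2, where Ankrd1 was 3.39-fold higher. The member nearest to Ankrd1, Xirp2, stood at 0.59, rank 2537 of 8564.

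**Figure D3:**
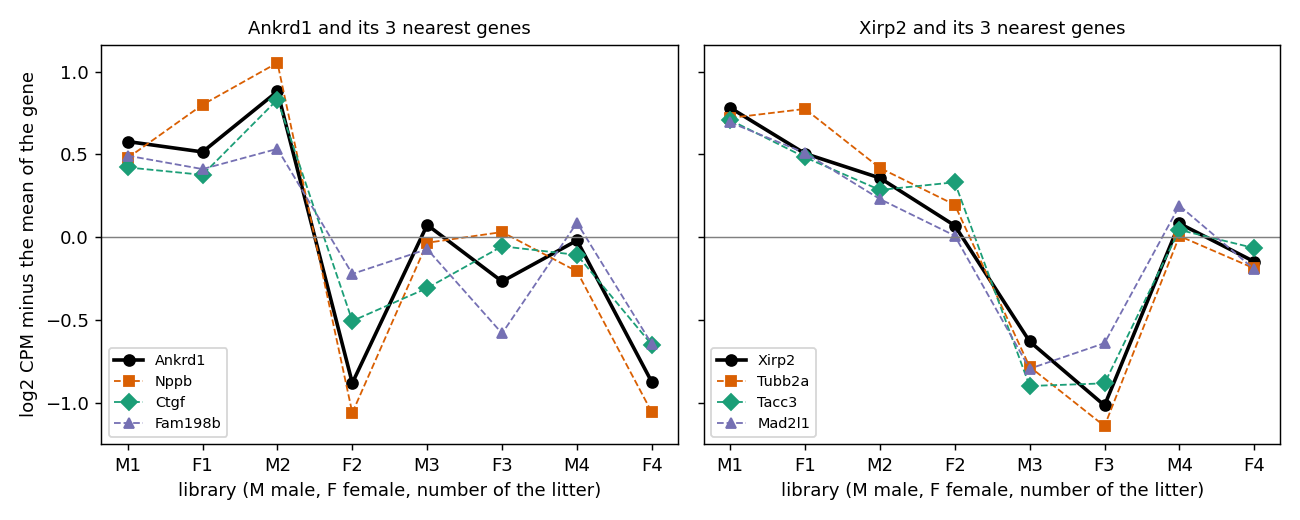
Log2 CPM minus the gene's own mean in each library (M male, F female, with the number of the litter; lines only join the points of a gene) for Ankrd1 and for Xirp2, each with its 3 nearest genes. Ankrd1, Nppb and Ctgf peak together in the male of litter 2 and are low in the females of litters 2 and 4, while Xirp2 and its neighbours are lowest in both libraries of litter 3.

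The start of the Ankrd1 gene is shown because TEAD and GATA factors are known regulators of it. The 250 bases before the start site in RefSeq on GRCm38.p6 are at chr19:36119845-36120094 on the minus strand. GENCODE places the start of the gene further upstream, so that this window lies inside its annotated span. The capitals mark GGAATG, the reverse complement of the MCAT motif CATTCC that TEAD factors bind, and TTATCT, the reverse complement of the GATA motif AGATAA.
Ankrd1: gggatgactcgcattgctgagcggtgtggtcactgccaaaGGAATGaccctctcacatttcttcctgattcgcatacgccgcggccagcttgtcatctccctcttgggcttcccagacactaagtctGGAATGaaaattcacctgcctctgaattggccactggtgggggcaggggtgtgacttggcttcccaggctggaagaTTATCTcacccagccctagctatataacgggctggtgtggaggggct

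MCAT occurred at 210 to 205 and at 123 to 118 bases before the Ankrd1 start site, and the GATA motif at 47 to 42 bases. The RefSeq promoter table matched 7 of the 8 genes with 10 start sites. Over all 32851 windows of the table, searched on both strands, 12.6% held MCAT and 9.99% held the GATA motif, and Ankrd1 was the single member with MCAT in these windows. A match is a stretch of letters and says nothing of whether a factor binds there.

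Litters were compared next, and Xirp2 was the member that differed most clearly between them. Xirp2 encodes the larger of the Xin-repeat proteins at the intercalated disc. It had 53.8 and 44.5 CPM in the male and female of litter 1, 40.6 and 33.4 CPM in litter 2, 20.6 and 15.7 CPM in litter 3, and 31.5 and 27.4 CPM in litter 4. Both libraries of litter 3 lay below all others and both of litter 1 above all others. Its log2 range over litters was 1.46 (edgeR adjusted p = 7.15e-06). Against the mean of the other 3 litters, Xirp2 fell by 1.09 on the log2 scale in litter 3 (SE 0.08, edgeR adjusted p = 2.41e-06) and rose by 0.86 in litter 1 (SE 0.06, edgeR adjusted p = 1.42e-05). These 3 calls held under every alternative run, although without litter 3 the range was 0.68 and the litter 1 difference 0.55. Its smallest count was 224, in the female of litter 3. In litter 2 Xirp2 was called at a log2 difference of 0.28 (SE 0.07, edgeR adjusted p = 0.0357), but this was -0.093 without litter 3, and the call was lost without any 1 of 6 libraries, those of litters 1 and 2, the female of litter 3 and the male of litter 4, with values from 0.27 to 0.29. It was lost too with DESeq2 (adjusted p = 0.127), after thinning (0.0752) and without the sex term (0.286). In litter 4 Xirp2 had -0.046 (edgeR adjusted p = 0.718), and without litter 3 it was called lower (-0.46, adjusted p = 0.00258).

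In the test of all 4 litters together, 4 of the 7 tested members were called (Xirp2, Nrap, Fhl1 and Fhl2), against 32.1% of all genes. In litter 3 Xirp2, Nrap, Fhl1 and Fhl2 were called, all lower than in the other litters, where 28.3% of all genes were called in either direction. Without the female of litter 3, 1 member (Xirp2) and 1704 genes were called, and without the male, 2 members (Nrap and Xirp2) and 2235 genes. In litter 1, 2 members were higher (13.3% of all genes called in either direction), in litter 2, 1 member (4.18%) and in litter 4, 2 members (10.5%). The median log2 fold change of the 7 members in litter 3 was -0.25, beside 0.00012 over all tested genes and -0.26 over the 8 cardiomyocyte markers. These 4 comparisons share libraries and are not independent. Without litter 3, 2 members passed the test over litters, Xirp2 and Ankrd1, beside 1899 of all genes, and without the female of litter 3, again these 2, beside 3048 genes.

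**Figure D4:**
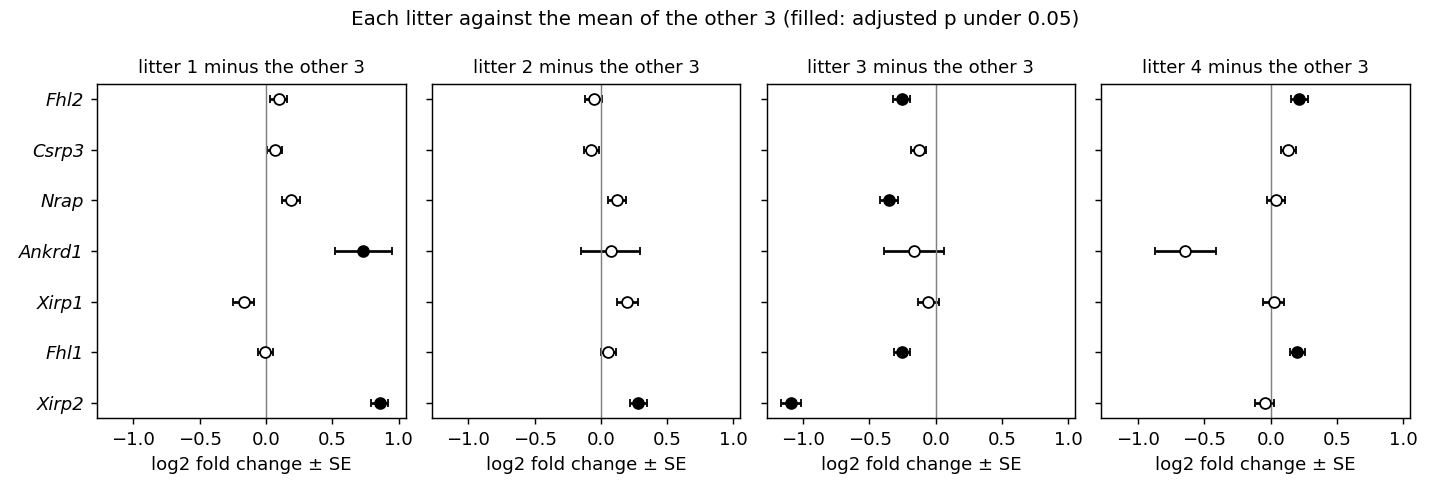
Log2 fold change with its standard error of each litter against the mean of the other 3, for 7 genes; filled points have an edgeR adjusted p under 0.05. Xirp2 stands out on the right in litter 1 (0.86) and on the left in litter 3 (-1.09), and Fhl2, Nrap and Fhl1 are filled left of 0 in litter 3.

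Xirp1, the other Xin-repeat gene, did not follow Xirp2. It had 297 and 274 CPM in the male and female of litter 1, 341 and 360 CPM in litter 2, 329 and 289 CPM in litter 3, and 272 and 334 CPM in litter 4. Both libraries of litter 2 were the highest and the other 3 litters overlapped, and its log2 range of 0.28 was not past the threshold (edgeR adjusted p = 0.153), although it was without the male (adjusted p = 0.0312), the female (0.0398) or both libraries (0.0362) of litter 4. The range was 0.15 without litter 2. The order of libraries given here is that of CPM. After TMM scaling the female of litter 4, at a log2 CPM of 8.43, lay above the male of litter 2, at 8.39. Without the male of litter 4 Xirp1 was called lower in litter 1 (-0.22, adjusted p = 0.0397), and without the female of litter 4 higher in litter 2 (0.26, adjusted p = 0.0403). Xirp2 counts as a percent of Xirp1 counts, which no scaling of libraries can change, were 18.1 and 16.2 in litter 1, 11.9 and 9.27 in litter 2, 6.27 and 5.45 in litter 3, and 11.6 and 8.19 in litter 4 (male, then female). The balance of the Xin genes was thus lowest in both libraries of litter 3 and highest in both of litter 1, as for Xirp2 itself.

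The genes nearest to Xirp2 in profile were Tubb2a, a beta tubulin, Tacc3, a spindle protein, and Mad2l1, a spindle checkpoint protein, with root mean square differences of 0.13, 0.15 and 0.16, beside a median of 0.57 over the 8564 genes. The nearest member was Nrap, at 0.41 and rank 511. The 250 bases before the start of Xirp2 are given because MEF2 factors are known to drive it. They lie at chr2:67445752-67446001 on the plus strand of GRCm38.p6 in RefSeq, and the capitals mark a match to the MEF2 motif.
Xirp2: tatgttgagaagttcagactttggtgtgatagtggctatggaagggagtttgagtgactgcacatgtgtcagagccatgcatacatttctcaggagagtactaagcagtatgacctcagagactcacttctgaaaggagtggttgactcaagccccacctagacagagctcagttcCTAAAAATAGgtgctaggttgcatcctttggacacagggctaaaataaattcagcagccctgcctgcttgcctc

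The MEF2 match lay 74 to 65 bases before the start site. A match was found in 2.92% of all windows, and in 2 of 10 member windows, those of Xirp2 and of Fhl2. Xirp2 shares 0.598% of its 100-base windows with Gm13601, a gene annotated on the opposite strand that had 0 counts in every library.

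Nrap, the scaffold of nascent myofibrils, was lower in litter 3. It had 537 and 505 CPM in the male and female of litter 1, 525 and 496 CPM in litter 2, 414 and 388 CPM in litter 3, and 425 and 502 CPM in litter 4. The libraries of litter 3 were the lowest, with the male of litter 4 close above them. Against the other litters Nrap fell by 0.35 on the log2 scale in litter 3 (SE 0.07, edgeR adjusted p = 0.00315). Without the female of litter 3 the difference was -0.31 and no longer called (adjusted p = 0.0665). Over all litters the log2 range was 0.41 (edgeR adjusted p = 0.0123), not called without the female of litter 3 (0.36, adjusted p = 0.110) or without all of litter 3 (0.11, adjusted p = 0.627). In litter 1 Nrap had 0.19 (SE 0.068, edgeR adjusted p = 0.0876) and was called higher without the female of litter 4 (adjusted p = 0.0123), litter 2 (0.0280) or litter 4 (0.0137), while the difference was 0.080 without litter 3. Among the genes nearest to Nrap in profile were Tcaim, at 0.045, and Ctnna1, the alpha catenin of the intercalated disc, at 0.048. Nrap shares 3.26% of its 100-base windows with Habp2 and Gm17197 on the opposite strand, which had at most 4 and 1 counts in any library.

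Csrp3 was the steadiest of the 7 tested genes. Csrp3, the muscle LIM protein, had 806 and 822 CPM in the male and female of litter 1, 782 and 750 CPM in litter 2, 723 and 778 CPM in litter 3, and 812 and 804 CPM in litter 4. All litters lay within a log2 range of 0.20 (edgeR adjusted p = 0.115), and 8.1% of tested genes had a smaller standard deviation over the libraries. Csrp3 was not called in any of the 4 comparisons of a litter with the others.

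Fhl2, the heart-rich LIM-only adaptor, had 1256 and 1326 CPM in litter 1, 1253 and 1160 CPM in litter 2, 1055 and 1139 CPM in litter 3, and 1222 and 1418 CPM in litter 4 (male, then female). Fhl1, its X-linked relative, had 120 and 109 CPM in litter 1, 124 and 115 CPM in litter 2, 106 and 98.8 CPM in litter 3, and 121 and 123 CPM in litter 4. Both genes were lowest in both libraries of litter 3. Fhl2 fell by 0.26 (SE 0.07, edgeR adjusted p = 0.0122) and Fhl1 fell by 0.25 on the log2 scale in litter 3 (SE 0.06, edgeR adjusted p = 0.00800). Each call was lost without the male or without the female of that litter, with fewer samples and differences of about the same size. Fhl2 had -0.22 and -0.29 (adjusted p = 0.127 and 0.0669) and Fhl1 had -0.26 and -0.25 (adjusted p = 0.0651 and 0.0886). Over all litters Fhl1 had a log2 range of 0.34 (edgeR adjusted p = 0.0185) and Fhl2 of 0.36 (adjusted p = 0.0206). With library size alone these calls ended (adjusted p = 0.0621 for Fhl1 and 0.0705 for Fhl2). The Fhl1 call ended also without the male (0.0786), the female (0.105) or both of litter 3 (range 0.16, adjusted p = 0.309) and without litter 4 (range 0.23, adjusted p = 0.0556). The Fhl2 call ended without the male (0.0579) or female (0.0555) of litter 1 and without the male (0.0908), the female (0.0652) or both of litter 3 (range 0.21, adjusted p = 0.209). The changes are small beside that of Xirp2, and the summed cardiomyocyte markers were low in the same libraries; their part in the result was not tested.

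In litter 4, Fhl2 was higher by 0.22 on the log2 scale (SE 0.06, edgeR adjusted p = 0.0498) and Fhl1 by 0.20 (SE 0.06, edgeR adjusted p = 0.0447). Both calls ended when libraries were scaled by their totals and not by TMM, at 0.14 and 0.13 (adjusted p = 0.185 and 0.190). Both ended also after thinning (adjusted p = 0.0515 and 0.0575) and without the sex term (0.0948 and 0.0790). The Fhl1 call ended with DESeq2 (0.0759), and the Fhl2 call with a mean of at least 50 counts (0.0522). They were lost as well in 8 (Fhl2) and 10 (Fhl1) of the 11 fits that left out a library or litter, with adjusted p up to 0.362 and 0.311, both without the female of litter 4. Fhl1 stayed called without litter 2, and Fhl2 without litter 1, litter 2 or the male of litter 2; the male of litter 4 is the library with 18.5% mitochondrial counts, whose part was not tested. Fhl1 counts as a percent of Fhl2 counts ran from 8.23 to 10.1 over the 8 libraries, and the litters overlapped.

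**Figure D5:**
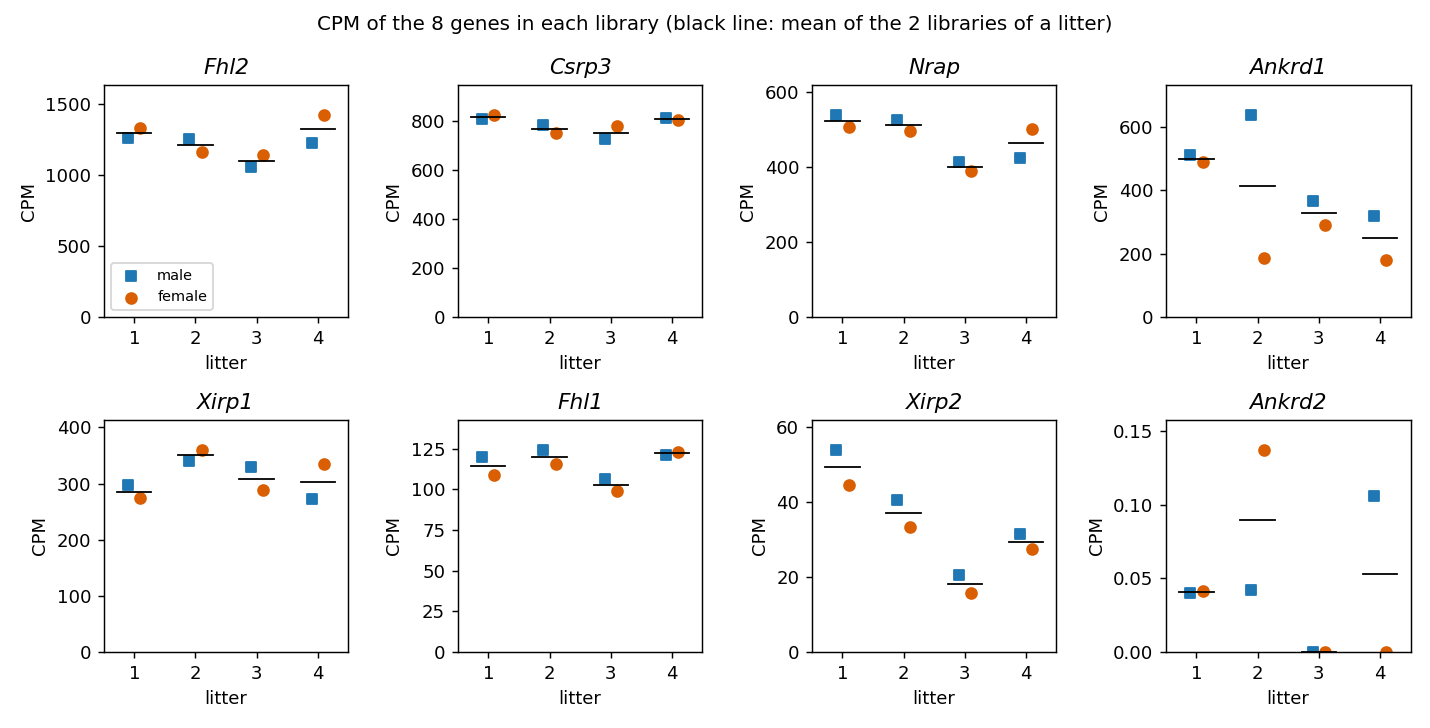
CPM of each of the 8 genes by litter, male libraries as squares and female as circles, with the mean of a litter's 2 libraries as a line; each panel starts at 0. Csrp3 is nearly level, Xirp2 steps down to litter 3 in both sexes, Ankrd1 splits by sex in litter 2 with 636 and 188 CPM, and Ankrd2 stays at or under 3 counts.

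Both start sites of Fhl2 held a match to the CArG box, and they are shown for that reason. SRF, a factor that answers to the state of actin, binds this motif. The windows are the 250 bases before the 2 start sites in RefSeq on GRCm38.p6, both on the minus strand, at chr1:43196762-43197011 and chr1:43163962-43164211. The GENCODE start of the gene falls within the upstream window, and the downstream window lies inside the gene. Capitals mark a CArG box in each, and in the upstream window also TTATCT, the GATA motif on the other strand, and a MEF2 match that overlaps a TATA motif (TATAAA) read on the other strand.
Fhl2 upstream start: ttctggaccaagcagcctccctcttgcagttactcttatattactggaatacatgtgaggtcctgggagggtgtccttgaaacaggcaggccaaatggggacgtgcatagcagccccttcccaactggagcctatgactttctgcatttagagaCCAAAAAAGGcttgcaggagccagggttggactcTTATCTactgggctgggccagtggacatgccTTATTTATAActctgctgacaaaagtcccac
Fhl2 downstream start: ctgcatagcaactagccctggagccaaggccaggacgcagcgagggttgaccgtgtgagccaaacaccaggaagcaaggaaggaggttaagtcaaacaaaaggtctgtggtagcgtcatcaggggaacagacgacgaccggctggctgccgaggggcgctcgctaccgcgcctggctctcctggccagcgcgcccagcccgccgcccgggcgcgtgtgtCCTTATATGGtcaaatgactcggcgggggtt

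CArG boxes lay 96 to 87 and 31 to 22 bases before the start sites of Fhl2. Another lay 102 to 93 bases before the more upstream of the 2 RefSeq start sites of Fhl1. That window, chrX:56779433-56779682, lies inside the gene as annotated in GENCODE. That makes 3 of 10 member windows, from 2 genes, where 1.47% of all windows of the table held one. Windows of the same gene are not independent, and the difference was not tested. The NKE motif TNAAGTG, which NKX factors bind, was in 2 of 10 member windows (Csrp3 and Nrap) and in 10.1% of all, and the TATA motif in 3 of 10 and in 12.4%. Counts per gene do not tell which start site was used.

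Of 8 tested relatives of the members, 3 were called over litters, Csrp2, Csrp1 and Ankrd23, near the 32.1% of all genes. In the comparison of litter 3 with the others the same 3 were lower and none was higher, where 28.3% of all genes were called in either direction. Csrp2, a LIM protein of smooth muscle and the developing heart, fell by 0.52 in litter 3 (edgeR adjusted p = 0.000117), from 83.2 to 120 CPM in the other litters to 72.9 and 65.9 CPM. Csrp1, the smooth muscle LIM protein, fell by 0.36 (adjusted p = 0.0111), at 120 and 118 CPM, close to its 119 and 124 CPM in litter 1. Ankrd23 fell by 0.57 in litter 3 (edgeR adjusted p = 0.0336) and rose by 0.75 in litter 1 (adjusted p = 0.00900), the directions of Xirp2. Smooth muscle and other mural cells also express Csrp1 and Csrp2. The summed level of 7 mural markers, all 7 of them with counts, was 879 and 858 CPM in litter 3, against 1288 to 1402 CPM in the other litters. Of the 7, 4 were lower in litter 3 and none higher. Acta2, which young cardiomyocytes also express, carried most of the fall in the sum, with 378 and 351 CPM in litter 3. The other 6 summed to 501 and 507 CPM in litter 3, inside the 406 to 558 CPM of the other litters. Yet Myh11, Rgs5 and Pdgfrb, markers of smooth muscle cells and pericytes, fell by 2.15, 2.21 and 2.30 (edgeR adjusted p = 0.00359, 0.000557 and 0.000295). Those falls did not show in the sum of the 6, so these sums say little of mural cell content. Of 8 fibroblast markers 6 were lower in litter 3, with sums of 53.0 and 33.1 CPM against 105 to 246 CPM, and of 8 endothelial markers 6 were lower, with sums of 19.1 and 19.5 CPM against 17.1 to 154 CPM. The part of these cells in the results on Csrp1 and Csrp2 was not tested.

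Partners at the Z-disc and at the intercalated disc were counted from separate lists. Of 18 titin and Z-disc partners 6 were called over litters, and of 15 disc partners 9, beside 32.1% of all genes; the difference between the lists was not tested. In the comparison of litter 3, 3 of the 18 Z-disc partners were lower and none higher, beside 28.3% of all genes called. Actn2, the alpha actinin that crosslinks the Z-disc, fell by 0.36 (edgeR adjusted p = 0.00186) and Myot, myotilin, fell by 0.96 (adjusted p = 0.00511), while Pdlim3, a Z-disc LIM protein, had -0.078 and was not called. Of the 15 disc partners, 2 were higher and 3 lower in that comparison. Ctnna1 fell by 0.40 (adjusted p = 0.000511), whereas Ctnna3, the heart's own alpha catenin, had -0.10 (adjusted p = 0.251) in litter 3 and rose by 0.38 in litter 1 (adjusted p = 0.00215). Tjp1, the junction scaffold ZO-1, had -0.14 in litter 3 (adjusted p = 0.140) and rose by 0.26 in litter 1 (adjusted p = 0.0221).

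Other stretch-responsive genes moved in both directions. Of 12 listed, 5 were called in the test over all litters (32.1% of all genes). In the separate comparison of litter 3 with the others, 4 of the 12 were higher and 3 lower (28.3% of all genes called in either direction). Myh7, the slow myosin that returns in the loaded heart, rose by 2.74 in litter 3 (edgeR adjusted p = 5.13e-09), and so did the immediate-early factors Egr1, by 1.94 (adjusted p = 1.60e-06), and Atf3, by 1.51 (adjusted p = 9.11e-06). Egr1 and Atf3 are also among the 10 immediate-early and heat shock genes, of which 8 were higher and 1 lower in litter 3 with a median of 1.44; the part of that response was not tested. Ankrd1 had -0.16 (SE 0.22, edgeR adjusted p = 0.627) in the comparison of litter 3, and was called lower there without the female of litter 2 (-0.36, adjusted p = 0.0382). In litter 1 Ankrd1 rose by 0.73 (SE 0.21, edgeR adjusted p = 0.0425), at 509 and 489 CPM, while Myh7 fell by 2.01 (adjusted p = 1.43e-06). The Ankrd1 difference in litter 1 was 1.16 without the male of that litter. The call was lost with DESeq2 (0.74, adjusted p = 0.292), without the sex term (0.62, adjusted p = 0.271), and without the female of litter 1 (0.24, adjusted p = 0.703), the male of litter 3 (adjusted p = 0.0550), the male of litter 4 (0.0503), the female of litter 4 (0.0909) or all of litter 4 (0.141). Over all litters Ankrd1 had a log2 range of 1.03 (edgeR adjusted p = 0.0522), which passed the threshold with library size alone (adjusted p = 0.0383) and after thinning (0.0429). It passed also without the male of litter 1 (0.0127), the male (0.000418), the female (0.000439) or both of litter 2 (0.000546), and the male (0.0464), the female (0.0310) or both of litter 3 (0.0376). The range itself was 0.50 without litter 1 and 1.45 without its male. In litter 4 Ankrd1 had -0.64 (SE 0.23, edgeR adjusted p = 0.0945) and was called lower without the male of litter 1 (0.0372), the female of litter 2 (0.00318), litter 2 (0.00578) or litter 3 (0.0353).

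Targets and regulators of the stretch pathways were counted from lists as well. Their counts are read against the 32.1% of all genes called over litters and the 28.3% called in litter 3. Of 13 YAP and TEAD targets 4 were called over litters, a share near that of all genes, and in litter 3, 1 was higher and none lower. Amotl1, an angiomotin that holds YAP at the junction, rose by 0.86 in litter 3 (edgeR adjusted p = 4.04e-06), while Amotl2 had -0.085 and Ptpn14 -0.032 there, neither called. Of 12 SRF and MRTF targets 7 were called over litters. In the comparison of litter 3, 1 of them was higher and 4 lower. Acta2, the smooth muscle actin that young cardiomyocytes also express, fell by 1.31 (edgeR adjusted p = 9.63e-07), Tpm1 fell by 0.52 (adjusted p = 5.62e-05) and Tpm4 fell by 0.79 (adjusted p = 0.00133). Of 14 regulators 7 were called over litters, and in the comparison of litter 3, 4 were higher and 1 lower. The heart factors Hand2 and Tbx5 rose by 0.32 (adjusted p = 0.00285) and 0.24 (adjusted p = 0.0332) in litter 3. Tead1, the DNA-binding partner of YAP, had 0.058 in litter 3 (adjusted p = 0.462) and rose by 0.23 in litter 1 (adjusted p = 0.0175).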

How the data were processed

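The authors' deposited table holds raw counts by gene symbol in 8 columns whose names match the samples' titles. Per the submitters' processing notes STAR 2.7.3a and mm10 were used, and per the labels' protocols stranded libraries were made from 1 µg of total RNA and read as single 100-base reads. The counting program, annotation and strand setting are not given in the sources used here, and the labels name both poly(A) RNA and a total RNA kit.

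Counts were analysed in R 4.3.3 with edgeR 4.0.16 after filterByExpr (13771 genes kept) and TMM scaling. Sexes were compared by the quasi-likelihood F test without a block, and litters in a model with sex (3 residual degrees of freedom). P-values were adjusted by Benjamini-Hochberg over all tested genes, with a threshold of 0.05, and a standard error is the log2 difference divided by the square root of F. DESeq2 1.42.0, library size alone, other filters, thinning and fits without a library or litter were alternatives, and the blocked fits without a litter were added after the data were seen. Samples of the same number share a litter per the labels. Their deviations from the sex means correlated at 0.367 to 0.696, against -0.482 to 0.27 for other pairs. No library repeated another, with a chi-square of 10.3 to 49.2 per degree of freedom between libraries of a sex. P-values of the sex test without a block measure the difference against the spread between hearts of a sex. Those of the litter tests and of the blocked fit rest on the spread left after litter and sex are fitted. They do not measure the spread between preparations of a litter. Lengths and overlaps came from GENCODE M21 on GRCm38, of the same assembly as mm10. The scripts were tested on simulated data.

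The members and lists were chosen with earlier results of these data known. Named genes are all 8 members, their relatives Csrp1, Csrp2 and Ankrd23, the stretch genes Nppa, Nppb, Myh7 and Acta1, genes among the 3 nearest in profile to Ankrd1, Xirp2 and Nrap (1 is not reported here), and from each other pathway list the 3 genes with the smallest p over litters. Cyr61, the atrial genes Myl7, Myl4 and Sln, and the mural genes Myh11, Rgs5 and Pdgfrb were named after their values were seen.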

Additional observations from a re-analysis of the deposited data

Results flagged for a closer look

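In each sex the 4 libraries of a gene were searched for 1 library far from the other 3, over 16 groups, where chance marks about 5% of groups. The search marked 2, both in litter 3. Fhl2 had 1055 CPM in the male of litter 3, against 1222 to 1256 CPM in the other males, a gap of 0.830 of the range. The female of that litter, at 1139 CPM, lay beside the female of litter 2 at 1160 CPM and was not marked. Nrap had 388 CPM in the female of litter 3, against 496 to 505 CPM in the other females, a gap of 0.918 of the range. The male of litter 3 had 414 CPM, close to the 425 CPM of the male of litter 4. The female of litter 3 is also the library with the fewest counts, 14226342, and its Nrap value still rests on 5523 counts.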

How the results depend on the processing

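For sex, 6 genes were called, 29 with litter as the replicate block, 5 to 8 without 1 library or litter, and, in blocked fits, 25, 22, 44 or 24 without litter 1, 2, 3 or 4; no member was called in any of these fits, so the block changed no call of a member. Without 1 library or litter, the litter test gave 1899 to 4586 genes (members 2 to 5), litter 1 gave 359 to 2906 (1 to 3), litter 2 gave 153 to 1407 (0 to 2), litter 3 gave 1704 to 4177 (1 to 5) and litter 4 gave 322 to 1984 (0 to 3). The lowest gene counts came without litter 3 for the litter test, and without the male of litter 1, the female of litter 2, the female of litter 3 and the male of litter 4 for those litters. Litter 2 had 1249 genes and 2 members without a filter, 350 genes with a mean of at least 50 counts, and 365 genes and 0 members without the sex term, with 0 members also under DESeq2 and after thinning. Litter 1 had 1 member under DESeq2 and 1 without the sex term. Litter 4 had 834 genes and 0 members without the sex term, 0 members with library size alone and after thinning, and 1 under DESeq2 and with a mean of at least 50 counts. Without a filter edgeR gave every gene the pooled spread (an infinite prior), so p-values of that fit are not read for single genes. The cause of the other shifts was not tested, beyond the fewer samples of fits without a library.

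Some signs turned, that of the called Xirp2 difference in litter 2 among them. Thinning gave 0.000365 for Xirp1 between sexes and 0.000797 for Fhl1 in litter 1, and library size alone gave -0.052 for Xirp1 and -0.033 for Nrap in litter 4. Without 1 library or litter, log2 differences between sexes ran from -0.051 to 0.044 for Csrp3, -0.14 to 0.013 for Fhl2, -0.089 to 0.066 for Xirp1 and -0.083 to 0.089 for Nrap. With the litter block as well, signs turned for Csrp3 without litter 1 (0.0011) or 3 (0.019), for Xirp1 without litter 2 (0.0012) or 4 (0.073) and for Nrap without litter 1 (-0.0097), 2 (-0.019) or 3 (-0.018). In litter 1 Fhl1 ran from -0.10 to 0.070. In litter 2 Ankrd1 ran from -0.69 to 0.66, Fhl1 from -0.032 to 0.13, Fhl2 from -0.18 to 0.065 and Xirp2 from -0.093 to 0.64. In litter 3 Ankrd1 ran from -0.45 to 0.13 and Xirp1 from -0.19 to 0.068. In litter 4 Xirp1 ran from -0.15 to 0.19, Xirp2 from -0.46 to 0.27 and Nrap from -0.11 to 0.19. A litter cannot be compared without itself, so its own comparison has no such fit. Among the members depth limits the statement on Ankrd2.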
